A study of Mus musculus with 3 samples.

Results

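The fibroblasts described here are 162 cells of the library from mice given sunitinib plus Yoda1, out of 3130 kept cells in that library and 11225 in the series. They were chosen by their transcripts. A cell needed 500 or more unique molecular identifiers (UMIs, which count captured mRNA molecules), 300 or more genes found and no more than 15% of UMIs from mitochondrial genes. It also had to show at least 3 of the 6 transcripts Pdgfra, Dcn, Lum, Col1a1, Dpt and Clec3b, and no UMI of the endothelial gene Pecam1, the leukocyte gene Ptprc, the smooth muscle gene Myh11 or the B cell gene Cd79a. Within them, 98 cells carried a UMI of Pi16 and 64 did not. The 2 sets are called Pi16-positive and Pi16-negative.

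The series profiled cells of digested arteries, labelled vascular tissue, from wild-type (WT) mice by droplet sequencing of transcript 3' ends. Its groups were sunitinib plus Yoda1, sunitinib, and vehicle, with 1 library each, all titled 3 weeks. The titles call them Yoda1, TKI and Control, and the series' design text alone says that the Yoda1 mice also received sunitinib. Doses, strain, sex, age, the number of pooled animals and the vessels taken are not given in the sources used here. Sunitinib blocks several receptor tyrosine kinases, among them the PDGF and VEGF receptors, and Yoda1 is an agonist of the stretch-activated cation channel PIEZO1.

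Fibroblasts build and maintain the collagen, elastic fibres and proteoglycans of connective tissue. In arteries they populate the adventitia, the outermost layer. Mouse tissues hold a widely shared fibroblast state marked by Pi16 and Dpp4, which surrounds vessels and is often called universal or adventitial, and a state marked by Col15a1 that lies within tissue parenchyma. Pi16 encodes peptidase inhibitor 16, a CAP-domain protein that is secreted or held at the cell surface. The study's title asks about heart damage by kinase inhibitors and the role of PIEZO1.

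The sunitinib plus Yoda1 library held 28364203 UMIs in 5118 barcodes, the sunitinib library 66769480 in 4506 and the vehicle library 73901343 in 4491. Kept cells were 3130, 4148 and 3947 in that order, with median depths of 5451.5, 15902.5 and 16561 UMIs. Cells that met the fibroblast rule made up 5.18% of kept cells with sunitinib plus Yoda1 (95% exact binomial interval 4.43 to 6.01), against 3 cells or 0.0723% with sunitinib (0.0149 to 0.211) and 3 cells or 0.0760% with vehicle (0.0157 to 0.222). Each group was 1 library, so treatment, dissection, software version and library cannot be told apart, no test between groups was made, and all intervals given here cover counting error only. The libraries differed in what else they held. B cells numbered 388 in the sunitinib plus Yoda1 library, against 0 with sunitinib and 1 with vehicle, and cells with smooth muscle or pericyte (mural) transcripts numbered 71, against 2835 and 2595. Of the barcodes of the sunitinib plus Yoda1 library, 8 also occurred in the sunitinib library and 3 in the vehicle library, and 1 of the 162 fibroblasts was among the 8.

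The few cells outside the sunitinib plus Yoda1 library are given singly. With sunitinib, the 3 cells had 1706, 12887 and 3488 UMIs in all, with 4, 0 and 19 Pi16 UMIs. With vehicle, the 3 cells had 9790, 1043 and 5690 UMIs and none of Pi16. The third of these cells also carried 26 UMIs of Acta2, the smooth muscle actin. With 3 cells in each of the other libraries, the levels of genes in fibroblasts could not be compared between treatments, and all that follows lies within the sunitinib plus Yoda1 library.

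The label was checked on the 6 markers Pdgfra, Dcn, C3, Clec3b, Igfbp6 and Apod, of which the rule used Pdgfra, Dcn and Clec3b. Pdgfra, the receptor for PDGF-A, had a UMI in 84.0% of the 162 cells and in none of the mural or endothelial cells. Dcn, the collagen-binding proteoglycan decorin, was in 98.8%, and Clec3b, which encodes tetranectin, in 88.3%. C3, the central complement component, was in 72.8%, Igfbp6, a binder of insulin-like growth factors, in 73.5%, and Apod, a lipocalin, in 45.7%. In the 388 B cells of the same library, whose median depth was 4499.5 UMIs against 9904 in the fibroblasts, these 6 genes were seen in 0% to 3.61% of cells. All 6 markers were thus above the level in B cells. As the rule used some of the markers, the check is a description.

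Marker lists of other cell types were summed in the 162 cells (see the plot of summed marker levels). The rule itself set Pecam1, Ptprc, Myh11 and Cd79a to 0. Among genes the rule did not use, the endothelial gene Tie1, the T cell genes Cd3d, Cd3e and Cd3g, the smooth muscle gene Cnn1, the adipocyte gene Adipoq and the Schwann cell genes Sox10 and Gfra3 were at 0. Summed over its list and expressed in CPM (counts per 1000000 UMIs of the set), the smooth muscle markers reached 147 CPM in Pi16-positive and 104 CPM in Pi16-negative cells. The endothelial markers reached 10.6 and 10.3 CPM, the T cell markers 2.44 and 1.71 CPM and the macrophage markers 30.1 and 34.2 CPM. B cell markers summed to 35.7 and 18.8 CPM. The Schwann cell list, with 6 of 8 members seen, summed to 301 CPM in Pi16-positive and 317 CPM in Pi16-negative cells, above the 179 CPM of mural cells. Only 1 member of that list, Scn7a, had at least 50 UMIs over the 2 sets. The lymph node reticular list, with 6 of 10 members seen, summed to 291 and 452 CPM, against 555 CPM in endothelial cells. Mesothelial markers summed to 31.7 CPM in Pi16-positive and 247 CPM in Pi16-negative cells, and perineurial and chondrogenic markers to 59.3 and 385 CPM. The sums of these 2 lists were thus higher in Pi16-negative cells, but cells with any member were about as frequent in both sets. Mesothelial markers were in 14 of 98 Pi16-positive and 7 of 64 Pi16-negative cells, and perineurial and chondrogenic markers in 39 and 25. Few members had at least 50 UMIs over both sets. In the mesothelial list this was Nkain4 alone, with a log2 ratio of 0.33, higher in Pi16-positive cells. In the perineurial and chondrogenic list these were Sox9 and Lypd2, both lower in them. The sums were not repeated without the 2 barcodes with airway transcripts described below. The part of these lists in the differences below was not tested.

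**Figure D1:**
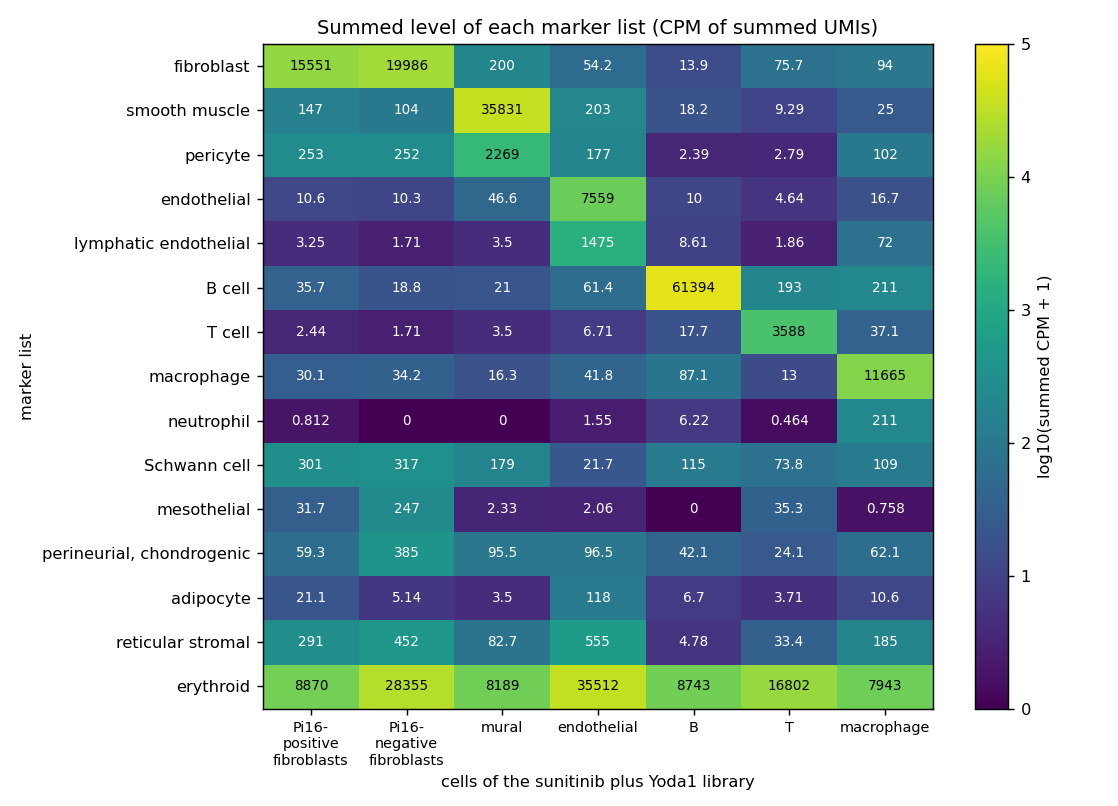
Summed CPM (printed in each field, colour as log10 of CPM plus 1) of each cell type's marker list (rows) in Pi16-positive and Pi16-negative fibroblasts and 5 other cell classes of the sunitinib plus Yoda1 library (columns). The fibroblast list stood at 15551 and 19986 CPM in the 2 fibroblast sets and at most at 200 CPM in the other classes, while the mesothelial and the perineurial and chondrogenic lists were higher in Pi16-negative cells.

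Some barcodes stood apart. Across 12338 pairs of fibroblasts with enough shared counts, a chi-square per gene comparing their counts had a median of 7.60. A pair of deep Pi16-positive barcodes (33787 and 25319 UMIs) differed by 1.18 per gene, close to sampling noise, and a pair of Pi16-negative barcodes (24952 and 24522 UMIs) by 1.40. In that second pair, 29.7% and 29.6% of UMIs came from secretory genes of airway epithelium such as Scgb1a1 and Bpifa1. These 2 barcodes held 99.4% of all airway UMIs of the 162 cells. Counts were repeated without them and with each pair taken once. Haemoglobin transcripts, which come from red cells, took 0.886% of UMIs in Pi16-positive and 2.83% in Pi16-negative cells, with a median of 3 UMIs per cell in both. Single cells held 47.4% and 55.9% of those totals.

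Pi16 lies on chromosome 17 (chr17:29317680-29330593, plus strand, GRCm38, GENCODE vM21). It is shown by its promoter together with those of 3 genes on which the comparison turns: Ackr3 (chr1:90203980-90216751, plus strand) and Cd55 (chr1:130439027-130462744, minus strand), both higher in Pi16-positive cells, and Apod (chr16:31296192-31314808, minus strand), lower in them. The sequences are RefSeq's, build GRCm38.p6, each running 5′ to 3′ on the gene's strand from 250 bases before to 50 bases after the start that RefSeq gives. For Pi16 that start lies inside the GENCODE gene, downstream of its first base. Capitals mark core promoter motifs, searched on both strands with no overlap among those shown: CCAAT, the TATA box TATAAA, and the GC box GGGCGG, which reads CCGCCC on the opposite strand.
Pi16, chr17:29318632-29318931, plus strand: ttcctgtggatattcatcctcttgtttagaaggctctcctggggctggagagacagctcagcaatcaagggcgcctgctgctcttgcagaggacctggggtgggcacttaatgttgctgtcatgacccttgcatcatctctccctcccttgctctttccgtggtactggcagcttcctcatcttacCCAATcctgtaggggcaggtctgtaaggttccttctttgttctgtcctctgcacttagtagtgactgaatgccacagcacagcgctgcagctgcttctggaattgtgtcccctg
Ackr3, chr1:90203730-90204029, plus strand: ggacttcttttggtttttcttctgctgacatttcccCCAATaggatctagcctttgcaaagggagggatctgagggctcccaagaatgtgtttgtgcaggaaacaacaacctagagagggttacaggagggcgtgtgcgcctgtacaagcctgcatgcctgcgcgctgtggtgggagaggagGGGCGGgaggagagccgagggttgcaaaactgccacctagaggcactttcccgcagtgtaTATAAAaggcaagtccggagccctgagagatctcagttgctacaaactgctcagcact
Cd55, chr1:130462695-130462994, minus strand: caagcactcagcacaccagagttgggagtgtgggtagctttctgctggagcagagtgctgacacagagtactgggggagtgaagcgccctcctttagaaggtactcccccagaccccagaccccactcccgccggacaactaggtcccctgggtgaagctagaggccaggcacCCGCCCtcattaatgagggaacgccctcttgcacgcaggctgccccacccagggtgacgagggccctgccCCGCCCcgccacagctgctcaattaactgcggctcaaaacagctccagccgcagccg
Apod, chr16:31314759-31315058, minus strand: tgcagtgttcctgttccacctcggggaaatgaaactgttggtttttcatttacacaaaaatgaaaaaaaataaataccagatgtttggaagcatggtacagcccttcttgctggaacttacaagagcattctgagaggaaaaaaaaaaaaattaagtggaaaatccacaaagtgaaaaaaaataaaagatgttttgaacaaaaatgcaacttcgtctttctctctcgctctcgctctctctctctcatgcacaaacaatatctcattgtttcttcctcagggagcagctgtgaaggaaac
Pi16 had 1 CCAAT box, at position -64 from the start. Ackr3 had a CCAAT box at -214, a GC box at -68 and a TATA box at -8. Cd55 had 2 GC boxes on the opposite strand, at -77 and -7, and Apod had none of these letters in its window. Of 27025 mouse promoters of this length, 37.9% held CCAAT, 35.9% GGGCGG and 14.2% TATAAA. The TEAD motif GGAATG, present in 14.6% of them, and the AP-1 motif TGANTCA, in 7.93%, were in none of the 4. Mfap5 is named without a sequence.

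Set beside the mural and endothelial cells of the library, and leaving out the genes of the rule, the fibroblasts stood furthest above both in C7, Apod, Dpep1, Cpxm1, Scara5, Igfbp6, Inmt and Smoc2. Of 6939 genes with enough UMIs, 1876 (27%) were at least 1.5-fold higher in the 162 fibroblasts than in the 71 mural cells and 1245 (17.9%) lower. Against the 336 endothelial cells, 1919 of 8432 genes (22.8%) were higher and 2499 (29.6%) lower. The levels below are CPM of summed UMIs, and since transcripts were counted at their 3' ends no level is compared between genes.

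C7, a late complement component, stood at 690 CPM in fibroblasts, 1.17 CPM in mural and 0.516 CPM in endothelial cells, a log2 ratio of 9.21 over mural cells (6.73 to 14.52). C3 stood at 2397, 1.17 and 19.1 CPM. Dpep1, a membrane dipeptidase, stood at 567 CPM against 1.17 CPM in mural and none in endothelial cells. Each of these 3 genes had 1 mural UMI, so ratios over mural cells have wide intervals. Inmt, an N-methyltransferase of indole amines, stood at 572 CPM in fibroblasts, against 0 in mural and 0.516 CPM in endothelial cells. Igfbp6 stood at 1106, 5.83 and 6.71 CPM. Scara5, a ferritin receptor, Cpxm1, a carboxypeptidase-like secreted protein, and Smoc2, a matricellular protein, stood between 365 and 404 CPM in fibroblasts and at most at 2.33 CPM in the other 2 classes.

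Other genes were shared more widely with mural or endothelial cells. Mfap5, a component of the microfibrils on which elastin is laid down, stood at 946 CPM in fibroblasts against 123 CPM in mural and 15.5 CPM in endothelial cells. Col15a1, a basement membrane associated collagen, stood at 297, 97.9 and 42.8 CPM. Pi16 itself stood at 643 CPM in fibroblasts, 0 in mural and 32.5 CPM in endothelial cells, where 8.33% of cells had a UMI. Pdgfrb, the receptor used as a mural marker and a target of sunitinib, was at 123 CPM in fibroblasts and 181 CPM in mural cells, a log2 ratio of -0.55 (-0.85 to -0.24).

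Pi16 was detected in 60.5% of the fibroblasts (52.5 to 68.1), against 1.03% of B cells. The 98 cells held 1167 Pi16 UMIs in all, from 1 to 155 per cell with a median of 5. In 15 cells there was a single Pi16 UMI and in 83 cells at least 2. The cell with the most gave 13.3% of all Pi16 UMIs. A few cells were thus far above the median.

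Detection of Pi16 followed depth and the number of rule genes seen (see the plot of Pi16 against depth). Pi16-positive cells had a median of 10299.5 UMIs (658 to 54206) and Pi16-negative cells 8416 UMIs (762 to 24952). When every cell was thinned to 2000 UMIs, which left 96 and 55 of the cells, 42.4% of the fibroblasts kept a Pi16 UMI, against 0.811% of B cells. Cells with all 6 rule genes had Pi16 in 71.6% of 95 cells at a median of 12198 UMIs. With 5 rule genes Pi16 was in 52.6% of 38 cells (median 8041 UMIs), with 4 in 40.0% of 15 (5481), and with 3, just inside the rule, in 28.6% of 14 (2253). Just outside the rule, cells with 2 of the genes had Pi16 in 14.3% of 21 cells at a median of 1439 UMIs. The share with Pi16 and the depth thus moved in the same order, and 2 of the 98 Pi16-positive and 9 of the 64 Pi16-negative cells had under 2000 UMIs.

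**Figure D2:**
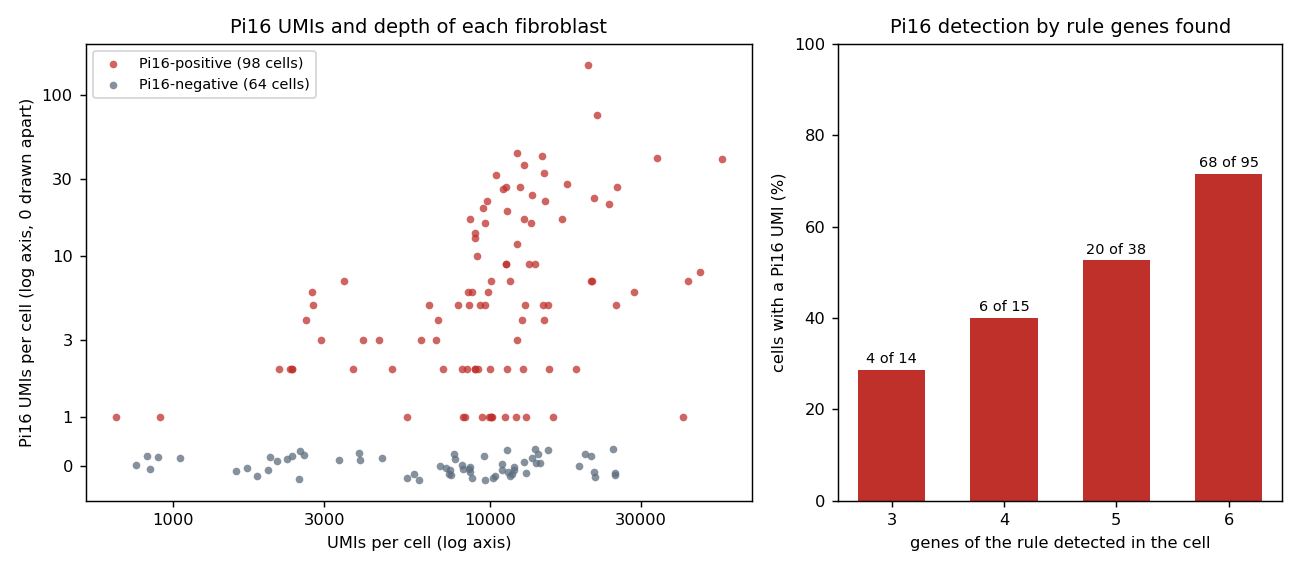
Left, Pi16 UMIs against total UMIs of each of the 162 fibroblasts on log axes, with cells without Pi16 drawn apart at 0, and right, the share of cells with a Pi16 UMI by the number of rule genes found, from 28.6% with 3 genes to 71.6% with 6. Pi16-positive cells (median 10299.5 UMIs) and Pi16-negative cells (median 8416 UMIs) overlap over most of the depth range.

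Pi16-positive fibroblasts carried more transcript of elastic fibre and adventitial genes, and less of a scatter of genes found in few Pi16-negative cells. With at least 50 UMIs over both sets, 5365 genes were compared. Of these, 687 (12.8%) were at least 1.5-fold higher in Pi16-positive cells and 354 (6.6%) lower, and the median log2 ratio was 0.09. Pi16 chose the cells, and all genes come from the same cells, so these ratios describe the sets and no test was made. Every ratio given for a gene, also one in brackets after its levels, is the log2 ratio of summed CPM in Pi16-positive over Pi16-negative cells, and a range after it is its 95% interval.

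Of the 6 fibroblast markers, Clec3b was past 1.5-fold upwards and Apod downwards. Clec3b had 0 to 87 UMIs per Pi16-positive cell (median 18) and 0 to 68 per Pi16-negative cell (median 5). Its summed level was 1894 against 1180 CPM, a log2 ratio of 0.68 (0.56 to 0.81). Pdgfra stood at 516 against 392 CPM (0.40), and was in 90.8% against 73.4% of cells. Dcn had a median of 109 against 108 UMIs per cell, and a log2 ratio of -0.34 (-0.38 to -0.30). C3 stood at 2250 against 2705 CPM (-0.27) and Igfbp6 at 1133 against 1048 CPM (0.11). The median CPM of single cells ran the other way in both, at 1307 against 1013 for C3 and 412 against 559 for Igfbp6. In every one of these genes the ranges of the 2 sets overlapped widely.

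Among the 6 markers, Apod stood furthest from an equal level. It had 0 to 19 UMIs per Pi16-positive cell and 0 to 518 per Pi16-negative cell, and was present in 41.8% against 51.6% of cells. The summed level was 141 against 2467 CPM, a log2 ratio of -4.13 (-4.37 to -3.91). One Pi16-negative cell held 32.1% of all Apod UMIs. The ratio lay between -4.84 and -3.49 under all other settings tried. After thinning, 15.6% of Pi16-positive against 34.5% of Pi16-negative cells had a UMI. The 4 highest Pi16-negative cells held 172, 238, 308 and 518 of the 1441 UMIs of that set, and the next held 56.

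Most measured genes of the universal or adventitial state were higher in Pi16-positive cells. Leaving out Pi16, the list had 29 members, of which 19 had enough UMIs. Of these, 13 were at least 1.5-fold higher and none lower, and the other 10 members had under 50 UMIs over both sets. Of those 10, Limch1 (46 and 3 UMIs), Cmah (39 and 3) and Efhd1 (26 and 2) were mostly in Pi16-positive cells, while Dpp4 (9 and 12) and Akr1c18 (0 and 6) were mostly in Pi16-negative cells. The 19 had a median log2 ratio of 0.86, beside 12.8% higher and 6.6% lower and a median of 0.09 over all genes. The list was drawn up with Pi16 as its defining gene and with results of these data known, so its count is no independent evidence. Thinned to 2000 UMIs, 6 of 13 measured members were higher and 1 lower, with a median of 0.48. Without the 2 airway barcodes the count was 12 of 19 higher and 0 lower.

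Mfap5 had a median of 9.5 UMIs per Pi16-positive cell (0 to 108) and 3 per Pi16-negative cell (0 to 15). It was found in 95.9% against 79.7% of cells and in no B cell. Summed levels were 1200 against 411 CPM, a log2 ratio of 1.55 (1.35 to 1.75). Fbn1, which encodes fibrillin-1, the backbone of microfibrils, had a median of 5.5 UMIs (0 to 104) against 2 (0 to 26). Its level was 916 against 406 CPM, a log2 ratio of 1.18 (0.97 to 1.38). The median CPM of single cells was 932 against 363 for Mfap5 and 533 against 235 for Fbn1. Neither shift thus lay in a few cells alone, though the ranges overlapped. For Fbn1 the cells with 4 or more Pi16 UMIs stood apart, as given below.

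Of the cell surface proteins of the list, Ackr3, Cd55, Cd34 and Cd248 were higher. Ackr3, an atypical receptor that scavenges the chemokine CXCL12, was in 54.1% of Pi16-positive and 26.6% of Pi16-negative cells. Its level was 373 against 51.4 CPM, a log2 ratio of 2.86 (2.33 to 3.44), and 1 cell held 15.7% of its UMIs. Cd55, which shields cells from complement, was in 43.9% against 10.9% of cells, and its log2 ratio was 2.33 (1.51 to 3.28) from 138 and 13 UMIs. B cells, which are known to carry CD55, had it in 65.5% and mural cells in 1.41%, while Ackr3 was in 0.258% of B cells. Cd34, a sialomucin of progenitors and endothelium, stood at 571 against 346 CPM (0.72). Cd248, or endosialin, stood at 296 against 151 CPM (0.97). Thinned, Cd248 came to 0.41.

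Among the other members, Opcml, an adhesion protein of the IgLON family, stood at 244 against 83.9 CPM (log2 ratio 1.54). Pcsk6, a proprotein convertase, stood at 144 against 53.1 CPM (1.44), and Sema3c, a secreted semaphorin, at 123 against 59.9 CPM (1.03). The transcription factor Creb5 had a log2 ratio of 0.86. Emilin2, a glycoprotein of elastic fibres, had 0.65. Wnt2, a Wnt ligand, had 48 and 6 UMIs and a ratio of 1.92, which became -0.44 without the deepest 10% of cells. Ly6a, the surface protein Sca-1, stood at 1509 against 1520 CPM, and Fn1 had a ratio of -0.01. Igfbp5 had -0.02, but between -1.12 and 1.99 under the alternatives, so no direction is read for it.

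Dpp4, the dipeptidyl peptidase that marks the universal state beside Pi16 in mouse, was sparse in both sets. It had 9 UMIs in 6 Pi16-positive cells (6.12%) and 12 UMIs in 7 Pi16-negative cells (10.9%). The log2 ratio was -1.49 (-2.92 to -0.12), and 19.8% of B cells had a UMI of it. No mural or endothelial cell had one. With so few UMIs, most fibroblasts of either set showed no Dpp4 at this depth. Pi16 and Col15a1 were seen together, without Dpp4, in 62 cells or 38.3% of the fibroblasts, and 4 cells had Pi16 and Dpp4 without Col15a1.

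Genes of the parenchymal state showed no common direction. All 25 members had enough UMIs, with 3 higher in Pi16-positive cells, 6 lower (12.8% and 6.6% over all genes) and a median of 0.00. Col15a1 stood at 265 against 365 CPM, a log2 ratio of -0.46, although 65.3% against 54.7% of cells had a UMI. Penk, the precursor of enkephalin peptides, was lower at 133 against 308 CPM, a log2 ratio of -1.21 (-1.52 to -0.90), in 46.9% of cells of each set. Col6a5, a chain of collagen VI, had the lowest ratio at -1.98, with 28.3% of its UMIs in 1 cell. Hmcn2, a hemicentin, was higher at 0.95, as were Htra3, a serine protease (0.67), and Tnxb, a tenascin (0.62). Gdf10, a TGF-beta family ligand, was seen in 56.1% against 56.2% of cells.

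The elastic fibre genes leaned one way (see the plot of gene lists). Of 16 measured members out of 18, 8 were higher in Pi16-positive cells and none lower, beside 12.8% and 6.6% of all genes, with a median of 0.58. Of the 8, Mfap5, Fbn1 and Emilin2 are also members of the universal list. Fbln2, a fibulin of microfibrils and basement membranes, stood at 523 against 229 CPM, a log2 ratio of 1.19 (0.92 to 1.47). Ltbp4, which anchors latent TGF-beta to microfibrils and guides elastin assembly, stood at 560 against 291 CPM (0.94, 0.70 to 1.19). Eln, which encodes tropoelastin, stood at 544 against 284 CPM (0.94), with 16.9% of its UMIs in 1 cell. Mfap4 (0.94) and Efemp2, fibulin-4 (0.82), were the remaining members past 1.5-fold. The lowest were the crosslinking enzyme Loxl2 at -0.21 and Efemp1 at 0.03.

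**Figure D3:**
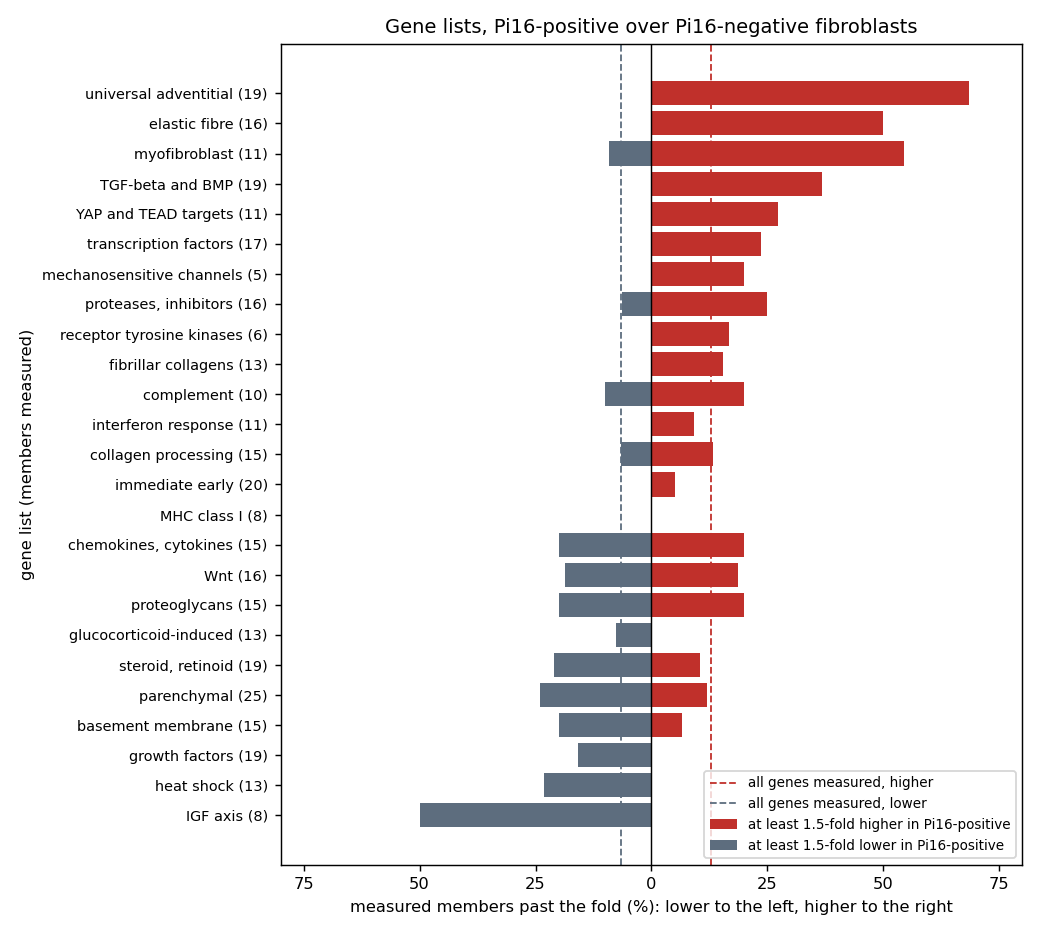
Share (%) of the measured members of each gene list that were at least 1.5-fold higher (bars to the right) or lower (bars to the left) in Pi16-positive than in Pi16-negative fibroblasts, with the number measured in brackets and dashed lines at the 12.8% and 6.6% of all 5365 genes. The universal list (68.4%), the myofibroblast list (54.5%) and the elastic fibre list (50%) reached furthest to the right and, among the lists drawn, the IGF list (50%) furthest to the left.

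Other matrix lists were mixed, and their counts and those of the lists that follow stand beside the same 12.8% higher and 6.6% lower of all genes. Of 13 fibrillar and associated collagens 2 were higher and none lower, with a median of 0.26. Col14a1, a collagen on the surface of fibrils, had a log2 ratio of 0.73 (0.55 to 0.91), and Col8a1 0.82 with 66.3% of its UMIs in 1 cell. The rule gene Col1a1 had a ratio of 0.46. Of 15 basement membrane genes 1 was higher, Lamc1 at 0.65, and 3 lower, among them Nid2 at -1.55 and Col4a1 at -0.66. Of 15 proteoglycan and hyaluronan genes 3 were higher and 3 lower. They ran from Has1, a hyaluronan synthase, at 1.72 to Gpc3, a glypican, at -0.89 and Prg4, lubricin, at -2.45. Vcan, versican, stood at 288 against 144 CPM. Among 16 proteases and inhibitors 4 were higher and 1 lower.

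Myofibroblast genes had the second highest median among the matrix and state lists, 0.82, with 6 of 11 members higher and 1 lower, but the sign turned in 2 of the alternatives. Acta2 had 48 UMIs in 12 Pi16-positive cells and 3 UMIs in 3 Pi16-negative cells, and 1 cell held 35.3% of them. Postn, periostin, had 133 and 16 UMIs and a ratio of 1.98. Without the cell highest in each gene the list's median was -0.069, and thinned to 2000 UMIs it was -0.13 over 2 members. Mural cells express Acta2, and the 2 pericyte genes measured, Kcnj8 (1.56) and Abcc9 (0.64), were higher too. Acta2 thus moved with 2 pericyte genes, and the part of mural RNA was not tested. The pericyte marker sum was near equal at 253 against 252 CPM.

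Secreted signalling proteins differed gene by gene. Among 16 Wnt pathway genes 3 were higher and 3 lower. Sfrp4, a secreted Wnt antagonist, stood at 859 against 269 CPM, a log2 ratio of 1.68. Wif1, another Wnt inhibitor, had 5 UMIs in 2 Pi16-positive cells and 89 UMIs in 9 Pi16-negative cells, a ratio of -5.23 (-6.89 to -3.95). The 2 secreted Wnt inhibitors thus stood on opposite sides.

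With all UMIs summed, the insulin-like growth factor genes were lower or near equal. Of 8 measured, none was higher and 4 were lower in Pi16-positive cells, beside 6.6% lower over all genes, with a median of -0.31. These were Igfbp3 (-1.09), the receptors Igf2r (-0.92) and Igf1r (-0.60), and the ligand Igf1 (-0.62). Thinned, Igfbp3 came to 0.13, 0 of 5 measured members were lower and the median was 0.04. As a mean over cells 1 of 8 was lower, with a median of -0.28. Without the deepest 10% of cells 2 of the genes were lower and the median was 0.11. Of 19 other growth factor genes 3 were lower, among them Angptl1 (-1.96) and Fgf10 (-0.71), and none higher. Of 19 TGF-beta and BMP pathway genes 7 were higher, led by Skil (0.99) and the receptor Acvrl1 (0.98), and none lower, beside 12.8% higher over all genes, with a median of 0.00.

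Of 15 chemokine and cytokine genes 3 were higher and 3 lower. Ccl8 had a ratio of 1.86, which was -1.07 without the deepest 10% of cells. Cxcl13, the B cell attractant, had -3.08, which was 0.93 without them. Cxcl14 was lower at -1.81 and the alarmin Il33 higher at 0.97. Among the complement genes, C2, a protease of the classical pathway, was lower at -0.60. Of the remaining lists, 3 of 11 YAP and TEAD target genes were higher and none lower, and 2 of 19 steroid and retinoid genes were higher and 4 lower. Interferon response genes had 1 of 11 higher and none lower, glucocorticoid-induced genes none of 13 higher and 1 lower, and collagen processing genes 2 of 15 higher and 1 lower. None of 8 MHC class I genes was past 1.5-fold.

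Transcription factors that mark fibroblast identity included 4 of 17 higher and none lower. Tcf21, a factor of mesenchymal cells, had the highest ratio at 1.28 (0.50 to 2.15), followed by Creb5, Gata6 (0.73) and Osr1 (0.66). Immediate early genes, which respond to dissociation, included 1 of 20 higher and none lower with a median of 0.00. Of 13 heat shock genes none was higher and 3 were lower, with a median of 0.09. The lowest were Hspa1b at -1.91 (-2.50 to -1.27 over all settings) and Hspa1a at -1.32 (-1.40 to -0.13 over all settings). Mitochondrial UMIs took a median of 3.79% in Pi16-positive and 3.95% in Pi16-negative cells. Immediate early transcripts and the mitochondrial share thus lay close together in the 2 sets, while Hspa1b and Hspa1a were lower in Pi16-positive cells.

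Piezo1, the channel opened by Yoda1, was rare in these fibroblasts. It had 26 UMIs in 16.3% of Pi16-positive cells and 15 UMIs in 21.9% of Pi16-negative cells, a log2 ratio of -0.28 (-1.25 to 0.74). B cells had a UMI in 13.4%, and after thinning to 2000 UMIs the share was 2.65% of fibroblasts against 5.14% of B cells, so it did not stand above that of B cells. The level was 22.6 CPM in fibroblasts against 139 CPM in endothelial cells. Piezo2, the related channel of sensory cells, had 28 and 14 UMIs and a ratio of -0.08 (-1.05 to 0.96). At this depth a difference of Piezo1 or Piezo2 between the 2 sets was not detectable.

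Of the kinases that sunitinib inhibits, Pdgfra and Pdgfrb had enough UMIs for a ratio. Pdgfrb stood at 109 against 154 CPM in Pi16-positive against Pi16-negative cells, a ratio of -0.50, and Pdgfra at 0.40 was given above. The median CPM of single cells ran the other way for Pdgfrb, at 87.3 against 57.1 CPM. It was at 0 UMIs in 30 of 98 against 29 of 64 cells, with at most 7 against 14 UMIs in a cell. The direction for Pdgfrb thus depended on the measure. Kdr had 5, Flt1 8, Kit 3 and Csf1r 18 UMIs over the 162 cells, and Flt3 and Flt4 none. A count of 0 over these cells does not show that a gene is absent. Axl, a receptor for GAS6, was the only one of 6 measured receptor kinases past 1.5-fold, at 0.78.

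The genes furthest apart were taken by size of ratio, among those in at least 10% of the cells of either set (see the plot of named genes). Of the 12 highest, Ackr3 and Cd55 were described above. Ppp1r14a, an inhibitor of myosin phosphatase, had 48 and 3 UMIs, was in 29.6% against 3.12% of cells, and had a ratio of 2.92. It stood at 954 CPM in mural cells. Col4a3, a basement membrane collagen chain, had 86 and 5 UMIs (3.03), and the gene model Gm46323 63 and 2 (3.90, and 0.61 when thinned). Serpinb1a, a serpin of proteases of neutrophils, had 108 and 9 UMIs and a ratio of 2.51, was in 40.5% of B cells, and came to -0.16 without the deepest 10% of cells. Mcub, Exosc8, Gm12840, Tmem132c and the clock gene Cry2 lay between 2.13 and 2.45.

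Most of the 12 lowest genes were carried by a few Pi16-negative cells. Sult1e1, the estrogen sulfotransferase, had 10 UMIs in 4 Pi16-positive cells and 145 in 8 Pi16-negative cells (-4.93). Agt, angiotensinogen, had 4 and 49 UMIs (-4.69), and Myoc, myocilin, 19 UMIs in 3 cells and 115 in 11 (-3.67). Pde11a, a cyclic nucleotide phosphodiesterase, had no UMI in Pi16-positive cells and 50 UMIs in 9 Pi16-negative cells, 48.0% of them in 1 cell. With its 0 set to a floor of 3 counts over the set the log2 ratio was -5.13 (upper limit -4.78), and it was -1.22 when thinned. Bpgm, an enzyme of red cells, was at -2.80 with 42.0% of UMIs in 1 cell. Epas1, the hypoxia factor HIF-2 alpha, was at -2.66 with 36.5% in 1 cell, at -0.82 without the airway barcodes and at -0.067 when thinned. Prg4 had 39.7% of its UMIs in 1 cell. Adam23, Nckap5 and Pappa, a protease of IGF-binding proteins, lay between -3.01 and -2.11.

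**Figure D4:**
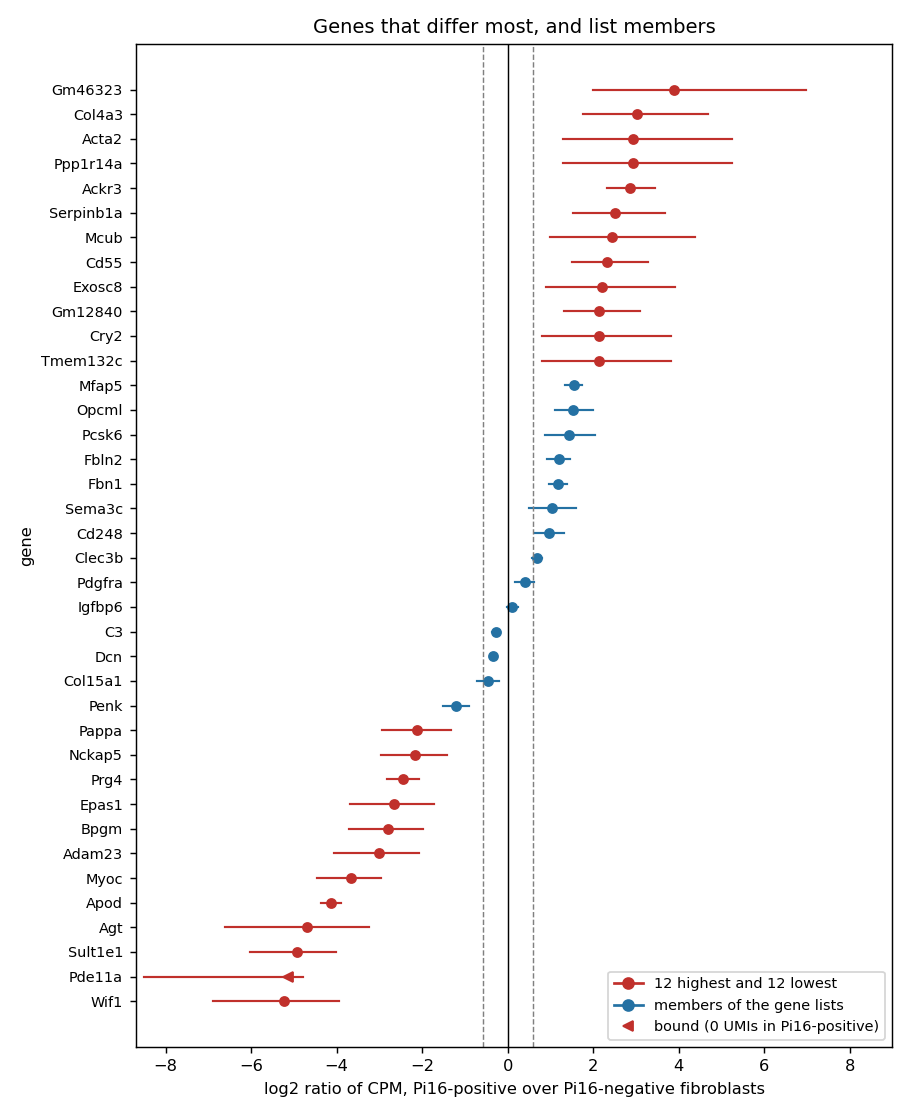
Log2 ratio of CPM, Pi16-positive over Pi16-negative fibroblasts, for the 12 highest and 12 lowest genes (red) and members of the gene lists (blue), with 95% intervals for counting error and dashed lines at 1.5-fold. The ratios run from 3.90 for Gm46323 to -5.23 for Wif1, and Pde11a with no UMI in Pi16-positive cells is drawn as a bound. The intervals of Clec3b, Igfbp6, Dcn, Mfap5, Fbn1 and Apod are among the narrow ones.

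Levels were also followed over the number of Pi16 UMIs in a cell, with 64 cells at 0, 15 at 1, 23 at 2 to 3 and 60 at 4 or more. Mfap5 stood at 411, 434, 1034 and 1375 CPM in this order, and at 400, 654, 913 and 1542 CPM after thinning. Ackr3 stood at 51.4, 108, 139 and 468 CPM, and Cd55 at 22.3, 30.1, 52.0 and 139 CPM. With all UMIs these 3 genes were thus higher at each step of Pi16. Clec3b stood at 1180, 1150, 1646 and 2080 CPM, Fbln2 at 229, 271, 260 and 621 CPM and Fbn1 at 406, 626, 422 and 1066 CPM. In Fbln2 and Fbn1 the cells with 4 or more Pi16 UMIs stood apart from the other 3 bins. Thinned, the log2 ratio of the top bin over the cells with none was 1.95 for Mfap5, 1.51 for Fbn1, 4.87 for Ackr3 and 1.80 for Cd55. The thinned ratios of Ackr3 and Cd55 rest on few UMIs, as 3.64% and 7.27% of the 55 thinned Pi16-negative cells had one.

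Among the other genes followed, Penk ran against Pi16 at 308, 247, 191 and 101 CPM, lower at each step. Apod, C3 and Col15a1 were not lower at each step. Apod stood at 2467, 199, 404 and 78.5 CPM, with most of the UMIs of the lowest bin in the 4 cells named above. C3 stood at 2705, 2782, 3655 and 1878 CPM and Col15a1 at 365, 325, 398 and 228 CPM, with the low value in the top bin alone. The bins differed in depth, with medians of 8416, 10056, 7100 and 12347.5 UMIs, and beyond thinning the part of depth in the order was not tested.

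**Figure D5:**
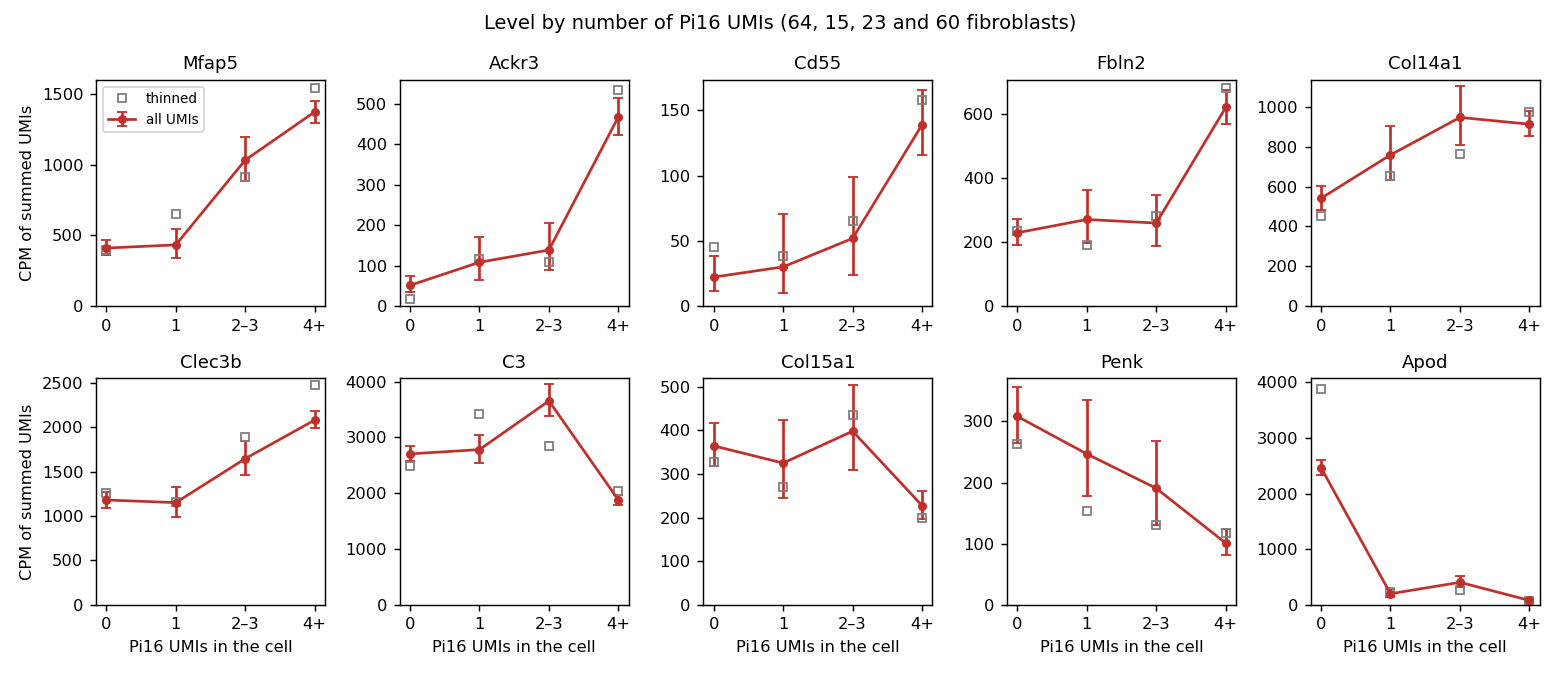
CPM of summed UMIs of 10 genes in fibroblasts with 0, 1, 2 to 3, and 4 or more Pi16 UMIs, with 95% Poisson intervals (red) and the value after thinning to 2000 UMIs (open squares). With all UMIs, Mfap5, Ackr3 and Cd55 were higher at each step to 1375, 468 and 139 CPM, while Penk was lower at each step to 101 CPM.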

How the data were processed

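Single cells of digested arteries were captured with a 10x Genomics 3' kit, per the labels' protocols. The authors deposited raw UMI counts per gene and barcode, not normalized, made with Cell Ranger 7.1.0 (sunitinib plus Yoda1) and 6.0.0 (sunitinib and vehicle), per the file headers. Version 7 of Cell Ranger adds intronic reads unless told otherwise, and the setting used is not stated in the labels or headers. Build mm10, Cell Ranger and Seurat are named in the submitters' processing notes. The libraries list 32285 genes, and rows that share a symbol were summed, giving 32245. No doublet caller was run. The 4 genes required absent removed 49 of the 211 cells of the sunitinib plus Yoda1 library with 3 or more rule genes.

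UMIs were summed over the cells of a set and divided by the set's total (CPM). Each ratio has an exact interval from the conditional binomial of its 2 counts, levels the exact Poisson and shares the exact (Clopper-Pearson) binomial interval, all at 95%. A gene needed 50 UMIs over both sets to enter a count or ranking (ratios of Dpp4, Piezo1 and Piezo2 rest on fewer), a count of 0 was set to 3 over the set, and 1.5-fold marks a difference for description. With 1 library a group, and cells no replicates, p-values were not computed. Mural, endothelial and B cells were chosen by detected and absent genes in the same way. Thinning drew 2000 UMIs from each cell and left out shallower ones.

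Named genes are the top 12 and bottom 12 by ratio among those with 50 UMIs and a UMI in 10% of either set, leaving out rule genes and mitochondrial, ribosomal, haemoglobin and similar genes, plus the highest and lowest members of the gene lists, the 6 markers, and 8 genes for the comparison with mural and endothelial cells. Some genes that this rule names are left out of the text. The members, lists, rule and alternatives were chosen with earlier results of these data known. Alternatives were TMM (edgeR 4.0.16 in R 4.3.3) and median-of-ratios scaling, other minimums, the mean over cells, thinning, other rules for Pi16 and for fibroblasts, and cells left out. On counts simulated for the Pi16 comparison over 5330 genes, 96.1% of genes set 2-fold apart came out past 1.5-fold, as did 6.41% of unchanged ones. The simulation drew Poisson counts for the summed sets without variation between cells, so these shares cover counting error only. Python 3.11.15, numpy 2.4.6, scipy 1.17.1, pandas 2.3.3 and matplotlib 3.10.9 were used.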

Additional observations from a re-analysis of the deposited data

How the results depend on the processing

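Between Pi16-positive and Pi16-negative fibroblasts, 687 genes were at least 1.5-fold higher and 354 lower. With no minimum beyond 4 UMIs the counts were 2354 and 2290, with a minimum of 200 UMIs 142 and 60, and with cells thinned to 2000 UMIs 129 and 50. Fewer genes were measured under the last pair of settings. Without the cell with the most UMIs of each gene 413 were higher, a choice made after seeing the data. Of the genes past 1.5-fold, 66.0% were higher, against 59.1% to 63.3% under the other scalings, 50.7% with no minimum and 53.5% without the top cell of each gene. The median of the myofibroblast list turned to -0.13 when thinned and -0.069 without the top cell of each gene. Thinned, Igfbp3 turned to 0.13. Without the deepest 10% of cells, Serpinb1a turned to -0.16, Wnt2 to -0.44, Cxcl13 to 0.93, Timp1 to -0.73 and Ccl8 to -1.07; the cause was not tested. The share with Pi16 was 42.4% thinned. The fibroblast rule gave 1 cell with vehicle at a limit of 5% mitochondrial UMIs. Thinned, 467 genes were higher and 298 lower than in mural cells, and 698 higher and 1213 lower than in endothelial cells. The universal list kept a positive median from 0.48 to 0.99 and the elastic fibre list from 0.44 to 1.04 in all settings. No paired analysis was possible because each group has 1 library and no test was made. The 64 Pi16-negative cells held 584021 UMIs, which limits what can be seen of rare genes such as Piezo1.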

Other observations

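Some genes that the naming rule missed had many UMIs and large ratios. They were picked after their values were seen, from the 744 genes with at least 300 UMIs over both sets. Adgrd1, an adhesion G protein-coupled receptor, stood at 374 CPM in Pi16-positive and 111 CPM in Pi16-negative fibroblasts (log2 ratio 1.75), in 66.3% against 29.7% of cells. Plat, tissue plasminogen activator, stood at 234 against 70.2 CPM (1.74), and Akap12, a scaffold for protein kinase A, at 416 against 128 CPM (1.70). Ccn5, a matricellular protein, had a ratio of 1.75 and Tnfaip6, which remodels hyaluronan, 1.68. On the other side, Prkg1, a cGMP-dependent kinase, stood at 135 against 507 CPM (-1.91). The metalloreductase Steap4 (-1.50), ceruloplasmin Cp (-1.48), Csmd1 (-1.54), Tmeff2 (-1.42) and the retinaldehyde dehydrogenase Aldh1a1 (-1.14) were lower too.

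Some of the genes lowest in Pi16-positive cells were found together in small sets of cells, again chosen after their values were seen. As these genes were picked for low levels in Pi16-positive cells, the counts of cells with Pi16 follow from that choice. Wif1 and Myoc shared 9 cells, of which 1 had a Pi16 UMI, against 97 of the other 153 fibroblasts. Sox9, a transcription factor of cartilage and other lineages, was in 7 of those 9 cells and in 36 of the 153. Col15a1 was in 1 of the 9 and in 98 of the 153. Their median depth was 7464 UMIs, and none was an airway barcode. Sult1e1 and Agt shared 8 other cells, of which 1 had a Pi16 UMI, against 97 of the other 154. Inmt, Penk and C3 were in all 8, and in 81, 68 and 110 of the other 154. Adam23 was in 6 (18 of the 154), and Pde11a and Cxcl13 were in 5 each (4 and 6 of the 154). The 8 cells had a median depth of 18563 UMIs, against 9904 in all fibroblasts, and the part of depth was not tested. Among the 8 were the 2 near-equal barcodes with airway transcripts. No cell with Wif1 and Myoc was among those with Sult1e1 and Agt. Sets this small would share few cells or none in any case, so they are not shown to be distinct. Lypd2 had 104 of its 106 UMIs in Pi16-negative cells.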
